A study of Homo sapiens with 54 samples.

Results

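The 46 proteasome genes described here were all the human gene symbols that begin with PSMA to PSMG, end in a number and had a mean of at least 1 TPM over 54 LNCaP tumours. The pattern matched 48 of the 60642 symbols in the table, and the symbols left out, PSMA8 and PSMB11, were below that mean. LNCaP is a human cell line from a prostate cancer that responds to androgen, and every tumour was a graft of its clone FGC under the skin of a male NOD-SCID mouse, a strain without working B and T cells. The study asked how such tumours change through castration, relapse and enzalutamide, an antiandrogen drug. PRE-CX tumours (n = 9) came from intact mice with mock surgery, and all other mice were castrated. POST-CX tumours (n = 8) were taken 1 week after castration, when serum prostate-specific antigen (PSA) was lowest. CRPC tumours (n = 10) had relapsed under castration without drug, by PSA back at its level before castration or a volume of 1000 cubic mm. ENZS (n = 12) and ENZR (n = 15) tumours came from castrated mice given enzalutamide by oral gavage at 10 mg/kg on 5 days a week, and were taken during the response or after relapse. All groups are grafts of 1 cell line, so their replicates are mice and not separate cancers.

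The proteasome is the protease that degrades proteins marked with ubiquitin. Its barrel-shaped core has outer rings of alpha subunits (PSMA genes), which gate the entrance, and inner rings of beta subunits (PSMB genes), of which PSMB5, PSMB6 and PSMB7 carry the cutting sites. Interferon induces the immunoproteasome subunits PSMB8, PSMB9 and PSMB10, which take the places of PSMB5, PSMB6 and PSMB7 and favour peptides for antigen presentation. The regulatory particle, made of PSMC ATPases that unfold substrates and PSMD subunits that bind and deubiquitinate them, caps the core, and PSME activators are other caps. PSMF1 is an inhibitor, and PSMG chaperones, with PSMD5, PSMD9 and PSMD10, help to assemble the complex. By these roles the 46 genes fell into 7 core alpha, 7 core beta, 3 immunoproteasome, 6 regulatory ATPase and 11 regulatory non-ATPase subunits, 3 chaperones of the regulatory particle, 4 activators, 1 inhibitor and 4 chaperones of the core.

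The promoter windows of 5 genes are printed, each from 250 bases before to 50 bases after a RefSeq transcript start (GRCh38.p14). PSME1 and PSME2 are shown because they encode partner subunits of 1 activator and lie near each other on chromosome 14, yet PSME1 was called higher than in PRE-CX and PSME2 was not. PSMB9 and TAP1 are shown because they start head to head on chromosome 6, with windows that overlap, and PSMD8 because it had the lowest POST-CX, ENZS and ENZR differences of all 46. Capitals mark matches, on either strand, to TGACNNNGC, the core of the antioxidant response element that NFE2L1 and NFE2L2 bind, or to a core of the interferon-stimulated response element that interferon regulatory factors bind, which reads GAAA, any 2 bases and GAAA again.
PSME1 promoter at chr14:24135944-24136243 (+): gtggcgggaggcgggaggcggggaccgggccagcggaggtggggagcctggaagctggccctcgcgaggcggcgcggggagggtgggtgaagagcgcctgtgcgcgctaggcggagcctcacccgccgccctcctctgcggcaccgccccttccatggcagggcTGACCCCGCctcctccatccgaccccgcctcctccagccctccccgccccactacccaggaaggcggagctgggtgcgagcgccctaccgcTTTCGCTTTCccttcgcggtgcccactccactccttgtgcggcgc
PSME2 promoter at chr14:24146561-24146860 (-): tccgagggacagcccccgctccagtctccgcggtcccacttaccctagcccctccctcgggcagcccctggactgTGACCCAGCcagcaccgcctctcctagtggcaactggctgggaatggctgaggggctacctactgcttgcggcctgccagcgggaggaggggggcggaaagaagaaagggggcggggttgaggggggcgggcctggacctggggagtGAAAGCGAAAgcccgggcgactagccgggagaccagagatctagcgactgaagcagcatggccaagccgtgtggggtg
PSMB9 promoter at chr6:32853942-32854241 (+): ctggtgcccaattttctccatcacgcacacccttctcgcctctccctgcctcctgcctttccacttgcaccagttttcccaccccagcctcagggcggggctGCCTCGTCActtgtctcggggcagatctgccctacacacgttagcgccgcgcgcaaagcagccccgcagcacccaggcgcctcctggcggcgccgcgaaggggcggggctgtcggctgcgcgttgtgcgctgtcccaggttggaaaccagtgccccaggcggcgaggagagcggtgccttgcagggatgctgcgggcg
TAP1 promoter at chr6:32853655-32853954 (-): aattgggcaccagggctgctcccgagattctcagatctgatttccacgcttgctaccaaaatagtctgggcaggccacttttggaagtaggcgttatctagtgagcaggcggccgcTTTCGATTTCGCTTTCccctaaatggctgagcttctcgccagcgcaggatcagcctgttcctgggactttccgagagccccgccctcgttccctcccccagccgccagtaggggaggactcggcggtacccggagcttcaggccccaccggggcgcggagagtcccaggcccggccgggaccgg
PSMD8 promoter at chr19:38374321-38374620 (+): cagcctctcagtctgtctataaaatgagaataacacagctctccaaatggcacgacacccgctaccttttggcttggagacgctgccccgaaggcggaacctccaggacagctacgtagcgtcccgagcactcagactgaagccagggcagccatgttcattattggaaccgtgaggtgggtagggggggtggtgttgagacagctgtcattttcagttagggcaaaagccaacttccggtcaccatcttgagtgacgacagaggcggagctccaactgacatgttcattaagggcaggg
Both PSME windows held 1 match to each motif, the PSMB9 window 1 antioxidant match, the printed TAP1 window 2 overlapping interferon matches, and the PSMD8 window none of either. TAP1 had another window, at chr6:32852712-32853011, which is not printed and held no match to either motif. No match to one motif overlapped a match to the other in these windows. Of the 46 genes, 40 had an entry in the promoter table, with 49 windows. The antioxidant core was in 15 of these 49 windows (30.6%), against 13.3% of all 35116 RefSeq windows of the same length, and the interferon core was in 7 (14.3%), against 3.57%. Such matches are short strings of letters and do not show binding.

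Levels are given in TPM, relative transcript levels corrected for gene length, rescaled in each tumour to a human total of 1000000. The deposited human total was 12.1% to 97.5% of 1000000, the remainder falling to the mouse genes of the combined reference. The lowest totals were in ENZR mouse 87 (12.1%) and POST-CX mouse 91 (27.9%), so results were also computed without both. TPM keep no read depth, so precision rests on the spread between tumours. All 7 LNCaP markers examined (such as KLK3 and FOLH1) were above 5 TPM in all 54 tumours. The summed level of 22 markers of stroma, vessels and blood, read in human symbols, was 10.4 to 23.1 TPM in PRE-CX, 15.6 to 47.7 in POST-CX, 17.8 to 105 in CRPC, 24.1 to 302 in ENZS and 15.1 to 115 in ENZR. Of these 22, 10 were below 1 TPM in all 54 tumours. Among stroma markers, LUM, COL3A1 and DCN reached 137, 73.3 and 43.1 TPM in ENZS. VWF (vessels) reached 7.68 TPM in PRE-CX and had lower medians in the other groups. CD68 and ITGAM (macrophages and other myeloid cells) reached 45.6 and 15.4 TPM in ENZR mouse 87. Other leukocyte markers, PTPRC, CSF1R, CD14, LYZ and AIF1, reached at most 0.0923, 0.297, 0.66, 0.755 and 1.81 TPM in ENZR. The part of the rise in the summed level, and of any mouse reads assigned to human symbols, in the results below was not tested.

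The mean over all tumours ran from 461 ± 82.7 TPM (SD, n = 54) for PSMA4 to 1.41 ± 3.13 TPM for PSMB9. PSMA4, PSMB1 (334 ± 39.7 TPM), PSMB4 (316 ± 31.0 TPM) and PSMA1 (295 ± 34.5 TPM) led the order, and neighbours in it mostly differed by less than their SD. Within the core, PSMB2 stood lowest at 70.4 ± 8.84 TPM. Among the catalytic subunits, PSMB5 averaged 166 ± 28.3 TPM, PSMB6 151 ± 19.99 TPM and PSMB7 141 ± 18.2 TPM, levels within an SD of the next. The lowest members were PSMB8 and PSMB9, and PSMB10 was far above both at 31.98 ± 9.52 TPM. PSMD5 was steady apart from 1 ENZS tumour, mouse 49, at 0.109 TPM, against 11.7 TPM or more in the other tumours. Of the processed-copy pseudogenes, 3 symbols had a mean of at least 1 TPM: PSMC1P1 at 10.9% of the PSMC1 level, PSMA6P1 at 2.51% of PSMA6 and PSME2P2. Reads shared with such copies were divided by estimation, so PSMC1 in particular is uncertain.

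Against PRE-CX, PSMD8, PSMG3 and PSMA6 fell and PSME1 rose in all 4 castrated groups, PSME4 fell and PSMD10 rose in CRPC, ENZS and ENZR, and 5 or 6 of the 7 core alpha subunits fell in POST-CX, ENZS and ENZR. A gene was called when the limma adjusted p, taken over all 17593 genes tested, was under 0.05, and a log2 difference is that of group means of log2(rescaled TPM + 1), which understates changes of low genes. No member was called with a doubling or halving on this scale. In other settings PSMD8 did in POST-CX on the values as deposited (-1.03) and PSMB9 did in ENZR with a pseudocount of 0.1 (1.08). After castration, in POST-CX, 1 of 46 genes was called higher (all genes tested, 20.6%) and 9 lower (5.62%). In CRPC, 2 were higher (14.2%) and 4 lower (5.87%). Under enzalutamide, ENZS tumours had 4 higher (47.5%) and 12 lower (13.6%), and ENZR tumours 2 higher (44.6%) and 14 lower (13.8%). All 4 comparisons share the PRE-CX tumours.

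The scale bears on these counts. The median log2 difference of all genes tested was 0.16 in POST-CX, 0.08 in CRPC, 0.29 in ENZS and 0.25 in ENZR, while that of the 46 genes was -0.12, -0.06, -0.05 and -0.04. In the same order, 41, 39, 43 and 43 of the 46 lay below the median of all genes. With each tumour centred on its own median over the tested genes, the calls were 0 higher and 27 lower in POST-CX (all genes, 10.2% and 14.4%), 0 and 8 in CRPC (11.6% and 11%), 1 and 32 in ENZS (26.6% and 28.3%), and 1 and 33 in ENZR (24.2% and 27.7%). On the values as deposited, they were 0 and 2, 0 and 0, 1 and 3, and 0 and 7. Of all 17593 genes, those values gave 293 higher and 472 lower, 957 and 337, 5360 and 1427, and 3135 and 2001. The centred falls were spread over the roles. In the order POST-CX, CRPC, ENZS and then ENZR, they took 6, 2, 7 and 7 of the 7 core alpha, 6, 1, 7 and 7 of the 7 core beta, 4, 0, 3 and 5 of the 6 ATPase and 6, 2, 8 and 9 of the 11 non-ATPase genes.

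**Figure D1:**
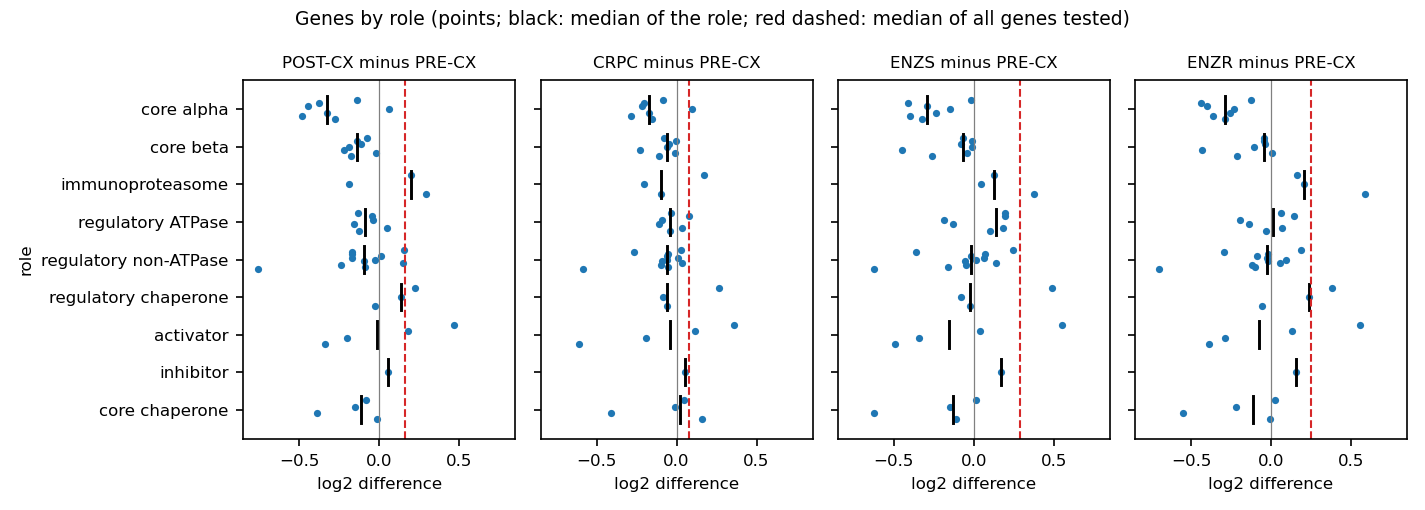
Each panel plots the log2 difference of a group from PRE-CX on the x axis for the 46 proteasome genes (points), arranged by role on the y axis, with a black bar for the median of each role and a red dashed line for the median of all 17593 genes tested. The median of every role lies left of the red line in all 4 panels, apart from that of the immunoproteasome genes in POST-CX.

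Core alpha subunits, which form the gated outer rings, fell in number: 5 of 7 in POST-CX and in ENZS (PSMA2, PSMA3, PSMA5, PSMA6 and PSMA7 in both), 6 in ENZR with PSMA4 added, and 1, PSMA6, in CRPC. PSMA6 was between 276 and 362 TPM in PRE-CX, with a median of 299. It was between 198 and 247 (median 222) in POST-CX, 206 and 387 (247) in CRPC, 190 and 297 (245) in ENZS, and 205 and 338 (236) in ENZR. All 8 POST-CX tumours lay below the PRE-CX range, as did 8 of 10 CRPC, 11 of 12 ENZS and 13 of 15 ENZR tumours. The PSMA6 log2 difference was -0.49 ± 0.10 (SE; limma adjusted p = 0.00045) in POST-CX, -0.29 ± 0.10 (0.030) in CRPC, -0.40 ± 0.09 (0.00028) in ENZS and -0.36 ± 0.09 (0.00059) in ENZR.

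PSMA2 had a median of 246 TPM in PRE-CX (218 to 306), 191 in POST-CX (172 to 224), 216 in CRPC (179 to 264), 196 in ENZS (150 to 228) and 192 in ENZR (129 to 220). Below the lowest PRE-CX value were 7 of 8 POST-CX, 5 of 10 CRPC, 11 of 12 ENZS and 14 of 15 ENZR tumours. The limma log2 difference of PSMA2 was -0.41 ± 0.08 (adjusted p = 1.4e-05) in ENZS and -0.44 ± 0.08 (2.8e-06) in ENZR, and in CRPC it was -0.21 ± 0.08 (0.068). PSMA3 fell by 0.45 ± 0.10 in POST-CX (adjusted p = 0.0010), where all 8 tumours (105 to 156 TPM) were under the PRE-CX range of 161 to 215 TPM. PSMA1 was not called on this scale, with log2 differences from PRE-CX of -0.14 to -0.02. Centred on the tumour median, it was called lower in POST-CX (-0.33, adjusted p = 0.022), ENZS (-0.31, 0.0067) and ENZR (-0.38, 0.00068). Within a tumour, the mean log2 level of the alpha genes exceeded that of the beta genes by 0.55 ± 0.11 (SD) in PRE-CX, 0.40 ± 0.07 in POST-CX, 0.48 ± 0.14 in CRPC, 0.42 ± 0.13 in ENZS and 0.38 ± 0.15 in ENZR. This within-tumour difference hardly depends on scaling, and its ranges overlapped between all groups.

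**Figure D2:**
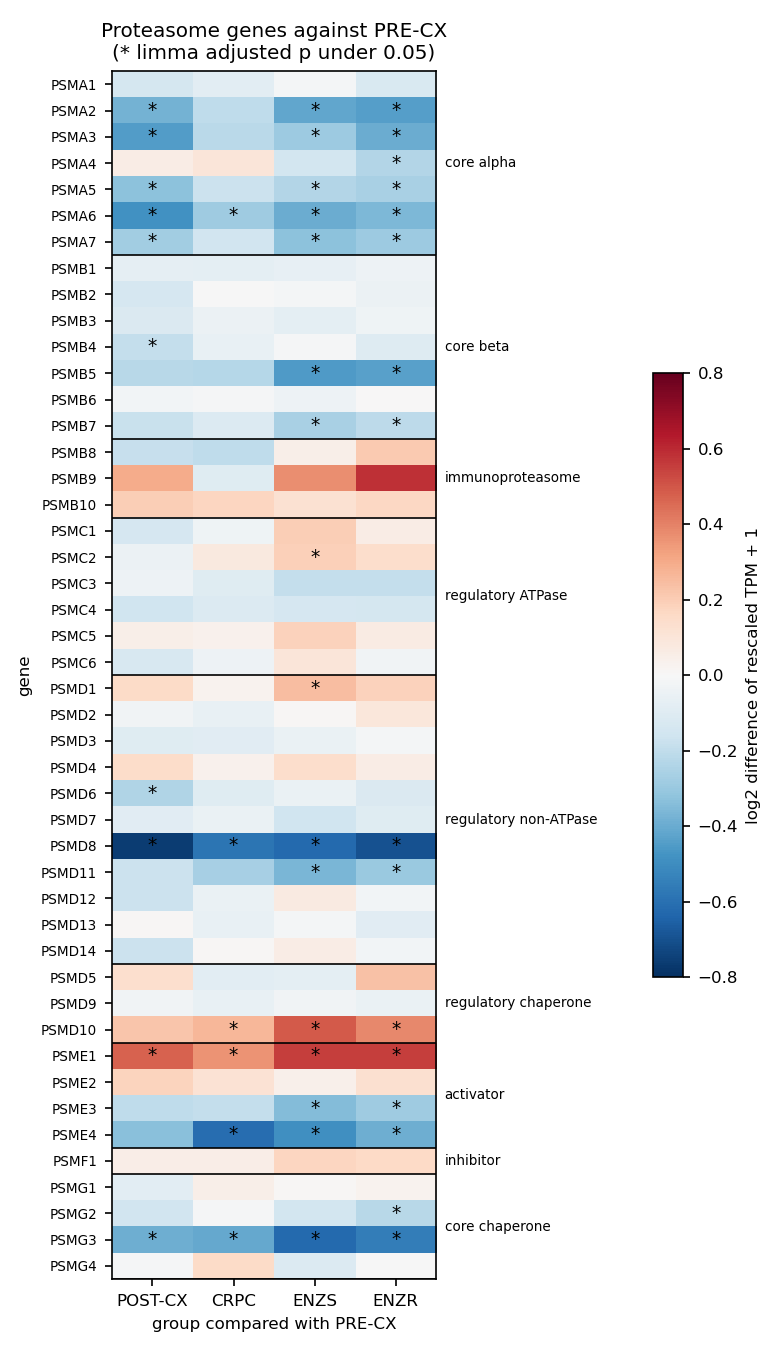
Colours give the log2 difference of rescaled TPM + 1 from PRE-CX for each of the 46 genes (rows, by role) in POST-CX, CRPC, ENZS and ENZR (columns), and an asterisk marks a limma adjusted p under 0.05. PSMD8, PSMG3, PSMA6 and PSME1 carry an asterisk in all 4 columns, with PSME1 the only one of them higher than in PRE-CX.

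Of the core beta subunits, PSMB5 and PSMB7 fell in ENZS and ENZR, PSMB4 fell in POST-CX, and none was called in CRPC. Centring called 6 of the 7 lower in POST-CX, all 7 in ENZS and in ENZR, and PSMB5 in CRPC (-0.32, adjusted p = 0.0097). PSMB5, the subunit with the chymotrypsin-like site that proteasome inhibitor drugs target, had a median of 193 TPM in PRE-CX (162 to 262). Its medians were 181 in POST-CX (130 to 196), 169 in CRPC (161 to 189), 145 in ENZS (124 to 180) and 151 in ENZR (115 to 198). Below the lowest PRE-CX value were 2 of 8 POST-CX, 1 of 10 CRPC, 9 of 12 ENZS and 12 of 15 ENZR tumours. The limma log2 difference of PSMB5 was -0.45 ± 0.08 in ENZS (adjusted p = 6.1e-06) and -0.43 ± 0.08 in ENZR (7.5e-06). It was -0.22 ± 0.09 in POST-CX (0.060) and -0.23 ± 0.09 in CRPC (0.052).

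PSMB7, with the trypsin-like site, had a mean of 157 ± 16.7 TPM (SD, n = 9) in PRE-CX, 131 ± 9.94 in ENZS and 136 ± 18.4 in ENZR, and fell by 0.26 ± 0.08 (limma adjusted p = 0.0027) and 0.21 ± 0.07 (0.011) on the log2 scale. PSMB6, with the caspase-like site, was at 153 ± 23.5 TPM in PRE-CX and at 148 to 153 TPM on average in the other groups. Its log2 difference from PRE-CX was between -0.04 and 0.00, and in ENZR its 95% interval ran from -0.16 to 0.17. Centred, it was called lower in ENZS (-0.34, adjusted p = 0.0019) and ENZR (-0.26, 0.013). The other beta genes, PSMB1, PSMB2 and PSMB3, were not called in these comparisons without centring.

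**Figure D3:**
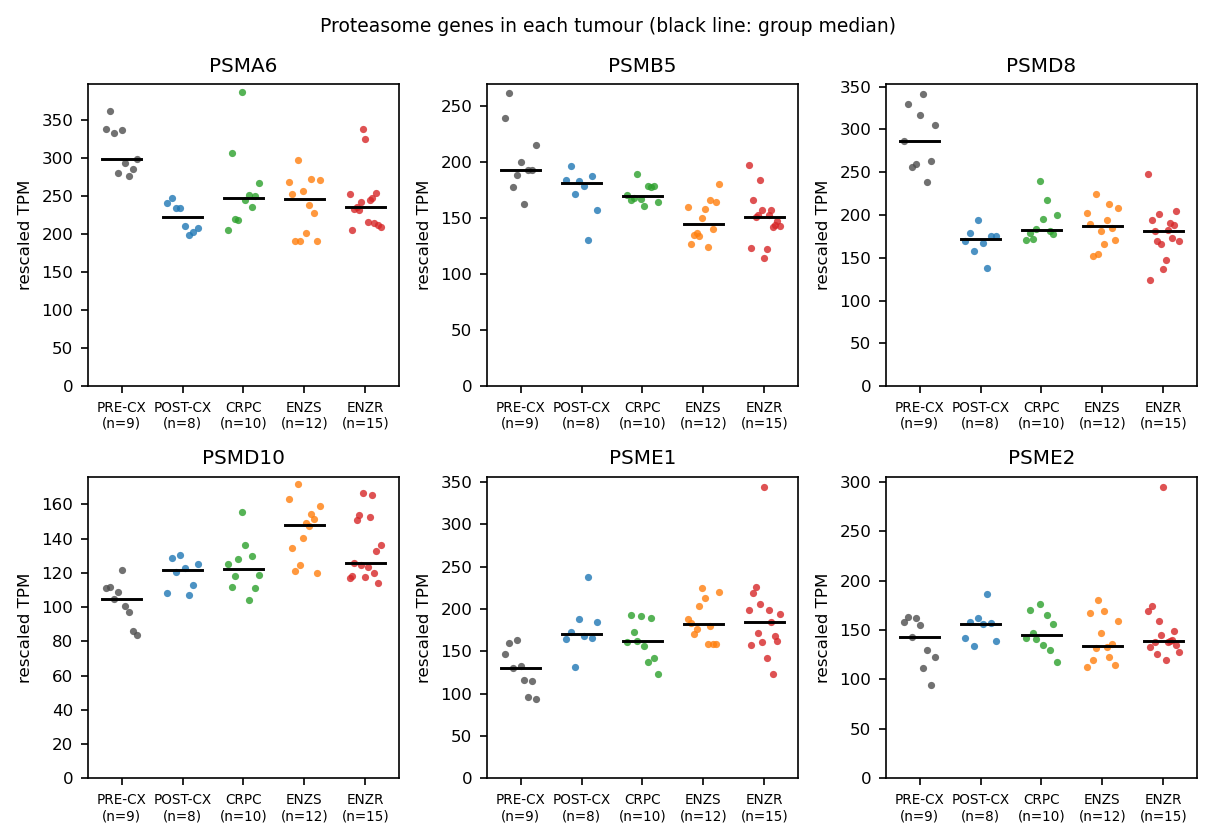
Rescaled TPM (y axis, from 0) of 6 proteasome genes in each tumour (points) of the 5 groups (x axis), with a black line at the group median. PSMA6 and PSMD8 lie lower than PRE-CX in nearly all castrated tumours, PSMB5 mainly in ENZS and ENZR, and PSME1 and PSMD10 lie higher, while PSME2 overlaps PRE-CX in every group.

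In the regulatory particle no ATPase gene was called lower without centring, and among 11 non-ATPase genes PSMD8 had the lowest differences. Centring called 3 to 5 of the 6 ATPases and 6 to 9 of the 11 non-ATPase genes lower in POST-CX, ENZS and ENZR. PSMD8, a subunit of the lid, had a median of 287 TPM in PRE-CX (238 to 342), 172 in POST-CX (138 to 194), 183 in CRPC (171 to 240), 187 in ENZS (152 to 225) and 181 in ENZR (124 to 248). No POST-CX or ENZS tumour reached the PRE-CX range, and 1 of 10 CRPC and 1 of 15 ENZR tumours did. The log2 difference was -0.76 ± 0.10 (limma adjusted p = 5.7e-08) in POST-CX, -0.58 ± 0.09 (4.3e-06) in CRPC, -0.62 ± 0.09 (3.5e-08) in ENZS and -0.70 ± 0.08 (1.6e-09) in ENZR, or 0.59 to 0.67 of the PRE-CX level. These calls held with either other scaling, apart from CRPC on the values as deposited (-0.55, adjusted p = 0.21).

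PSMD11, a lid subunit, had means of 126 ± 30.0 TPM in PRE-CX, 96.0 ± 11.0 in ENZS and 101 ± 14.3 in ENZR and fell in the latter groups, by 0.36 ± 0.11 (limma adjusted p = 0.0045) and 0.30 ± 0.11 (0.015). PSMD6 was the other non-ATPase gene called lower without centring, in POST-CX. PSMD1, a large base subunit, and the ATPase PSMC2 were called higher in ENZS, by 0.24 ± 0.10 (limma adjusted p = 0.039) and 0.19 ± 0.08 (0.043). Centred on the tumour median, both differences were below 0 and not called (-0.05 for PSMD1 and -0.10 for PSMC2). PSMD4, a ubiquitin receptor, and PSMD14, the deubiquitinase of the lid, were not called in any comparison without centring, with log2 differences from PRE-CX of 0.04 to 0.15 and -0.17 to 0.06. Centring called PSMD14 lower in POST-CX (-0.36, limma adjusted p = 0.0039), ENZS and ENZR, and PSMD4 lower in ENZR.

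Of the chaperones, PSMD10 and PSMG3 moved in opposite directions. PSMD10 (gankyrin), which binds an ATPase during assembly of the base, had a median of 105 TPM in PRE-CX (83.5 to 122), 122 in POST-CX (107 to 130), 122 in CRPC (104 to 156), 148 in ENZS (120 to 172) and 126 in ENZR (114 to 167). Above the PRE-CX range were 4 of 8 POST-CX, 5 of 10 CRPC, 10 of 12 ENZS and 10 of 15 ENZR tumours. It rose in CRPC by 0.27 ± 0.08 (limma adjusted p = 0.015), in ENZS by 0.49 ± 0.08 (6.3e-07) and in ENZR by 0.38 ± 0.08 (2.7e-05), and in POST-CX the difference was 0.22 ± 0.09 (0.052). Centred on the tumour median, the ENZS call held (0.19, adjusted p = 0.047), and those in CRPC (0.18, 0.15) and ENZR (0.12, 0.20) did not. All of these PSMD10 calls were lost on the values as deposited (0.31, 0.45 and 0.14 in CRPC, ENZS and ENZR, with adjusted p of 0.54, 0.11 and 0.67).

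PSMG3, a chaperone of the alpha ring, had a median of 55.6 TPM in PRE-CX (43.7 to 72.9), 41.8 in POST-CX (35.9 to 48.7), 43.1 in CRPC (28.3 to 59.4), 33.9 in ENZS (27.6 to 48.1) and 38.6 in ENZR (28.7 to 52.1). Tumours below the PRE-CX range were 5 of 8, 6 of 10, 10 of 12 and 13 of 15 in that order. The limma log2 difference of PSMG3 was -0.39 ± 0.11 (adjusted p = 0.0089), -0.41 ± 0.11 (0.0050), -0.62 ± 0.10 (1.4e-06) and -0.55 ± 0.10 (7.1e-06). Without centring, PSMG2 was called lower in ENZR and in no other comparison, and PSMG1, PSMG4, PSMD5 and PSMD9 were not called. Centring called PSMG2 and PSMD9 lower in POST-CX, ENZS and ENZR, and PSMG1 and PSMG4 lower in ENZS. It also called PSMG2, PSMG3 and PSMG4 lower in ENZS than in CRPC.

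The activators split. PSME1 and PSME2 encode the alpha and beta subunits of the 11S cap, which interferon induces. PSME1 had a median of 130 TPM in PRE-CX (93.2 to 164), 170 in POST-CX (132 to 238), 162 in CRPC (124 to 192), 182 in ENZS (158 to 225) and 185 in ENZR (124 to 344). Above the PRE-CX range were 7 of 8 POST-CX, 4 of 10 CRPC, 9 of 12 ENZS and 10 of 15 ENZR tumours. PSME1 rose by 0.47 ± 0.13 (limma adjusted p = 0.0057), 0.36 ± 0.12 (0.030), 0.55 ± 0.12 (6.6e-05) and 0.55 ± 0.11 (3.9e-05) in that order.

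PSME2 had medians of 143 TPM in PRE-CX, 157 in POST-CX, 145 in CRPC, 134 in ENZS and 139 in ENZR, and its log2 differences from PRE-CX of 0.04 to 0.18 were not called. In ENZS the 95% interval of the PSME2 difference was -0.18 to 0.26. Within a tumour, log2 PSME1 minus log2 PSME2 averaged -0.11 ± 0.23 (SD) in PRE-CX, 0.18 ± 0.14 in POST-CX, 0.13 ± 0.21 in CRPC, 0.40 ± 0.18 in ENZS and 0.32 ± 0.21 in ENZR, so that PSME1 was above its partner on average in all castrated groups. The difference between the 2 genes was described and not tested. Above the PRE-CX range of this difference were 2 of 8, 1 of 10, 8 of 12 and 7 of 15 tumours. Centred on the tumour median, PSME1 was called in ENZR (0.29, adjusted p = 0.029) and not in POST-CX (0.28, 0.12), CRPC (0.27, 0.12) or ENZS (0.26, 0.066). On the values as deposited, its calls in POST-CX, CRPC and ENZR were lost, and the CRPC call was also lost without a filter. None of its calls against PRE-CX therefore held in every setting. Without mice 87 and 91 the PSME1 differences were 0.41 in POST-CX and 0.49 in ENZR, both called.

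PSME4 (PA200), a nuclear cap, fell. Its medians were 41.3 TPM in PRE-CX (24.1 to 54.0), 31.4 in POST-CX (21.1 to 36.4), 24.7 in CRPC (18.7 to 32.9), 28.3 in ENZS (19.3 to 37.7) and 29.2 in ENZR (19.4 to 56.4), with ranges that overlapped PRE-CX throughout. The limma log2 difference was -0.61 ± 0.14 (adjusted p = 0.0017) in CRPC, -0.49 ± 0.14 (0.0020) in ENZS, -0.39 ± 0.13 (0.011) in ENZR and -0.34 ± 0.15 (0.094, not called) in POST-CX. PSME3 (PA28 gamma), another nuclear activator, fell in ENZS by 0.35 ± 0.13 (0.017) and in ENZR by 0.29 ± 0.12 (0.040), the latter not called without mice 87 and 91 (-0.24, adjusted p = 0.066). PSMF1, the inhibitor, had means of 64.5 to 72.9 TPM and was not called.

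No immunoproteasome gene was called against PRE-CX on this scale. PSMB9 was called higher in ENZR with a pseudocount of 0.1 (1.08, limma adjusted p = 0.034) and with array weights (0.49, 0.031). In ENZS it was called without mice 87 and 91 (0.37, 0.045), neither of them an ENZS tumour. There the estimate was the same as with all tumours, and its SE was 0.17 instead of 0.29. Other settings called PSMB9 in neither group. Centred, its differences were 0.08 in ENZS (adjusted p = 0.84) and 0.325 in ENZR (0.34). Without mice 87 and 91 the ENZR difference was 0.35 (0.056). PSMB8 had a median of 1.70 TPM in PRE-CX (0.421 to 13.5), 1.26 in POST-CX (0.244 to 9.07), 1.58 in CRPC (0.359 to 4.40), 1.99 in ENZS (0.258 to 6.86) and 2.51 in ENZR (0.144 to 15.2), so that all groups overlapped over most of their range. PSMB9 medians were 0.616, 0.680, 0.393, 0.971 and 1.10 TPM in the same order. Its highest values, 22.8 TPM in ENZR mouse 87 and 6.74 TPM in POST-CX mouse 91, came from the tumours with the lowest human totals, where the part of mouse reads was not tested. Mouse 87 also had the highest PSMB10 (89.7 TPM), PSME1 (344 TPM), PSME2 (295 TPM) and TAP1 (70.5 TPM) of all tumours. Its level of CD68, a macrophage marker named here after its value was seen, was 45.6 TPM against an ENZR median of 1.64, and its ITGAM was 15.4 TPM. Of other markers of such cells, PTPRC, CSF1R, CD14, LYZ and AIF1 reached at most 0.0923, 0.297, 0.66, 0.755 and 1.81 TPM in ENZR. The AIF1 median in ENZR was 0.113 TPM, and its highest value outside ENZR was 0.466 TPM, in POST-CX. In such bulk tumours, fewer cells of a type and less RNA per cell cannot be told apart.

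The widest PSMB9 difference, 0.58 ± 0.28 in ENZR, was not called (limma adjusted p = 0.066). PSMB10 was the one immunoproteasome gene with a sizeable share, 15.5 ± 2.90% (SD) of the summed TPM of PSMB10 and PSMB7 in PRE-CX, 19.2 ± 2.92% in POST-CX, 18.2 ± 2.53% in CRPC, 19.2 ± 1.98% in ENZS and 19.6 ± 7.12% in ENZR. PSMB8 made 1.07% to 2.16% of its pair with PSMB5, and PSMB9 0.373% to 1.46% of its pair with PSMB6, as group means. Over 21 two-sided permutation tests of the log2 difference within a tumour (3 pairs in 7 comparisons), 1 passed. PSMB10 relative to PSMB7 was 0.38 higher in ENZS than in PRE-CX (exact p = 0.0019, adjusted p = 0.041), and by mean ranks the adjusted p was 0.087. PSMB7 itself was called lower in ENZS (mean 131 TPM, 157 in PRE-CX). PSMB10 alone differed by 0.12 ± 0.14 (limma adjusted p = 0.46), or -0.17 when centred, and was not called. In ENZR, PSMB10 relative to PSMB7 was 0.38 higher than in PRE-CX (exact p = 0.030, adjusted p = 0.13), or 0.26 without mouse 87.

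**Figure D4:**
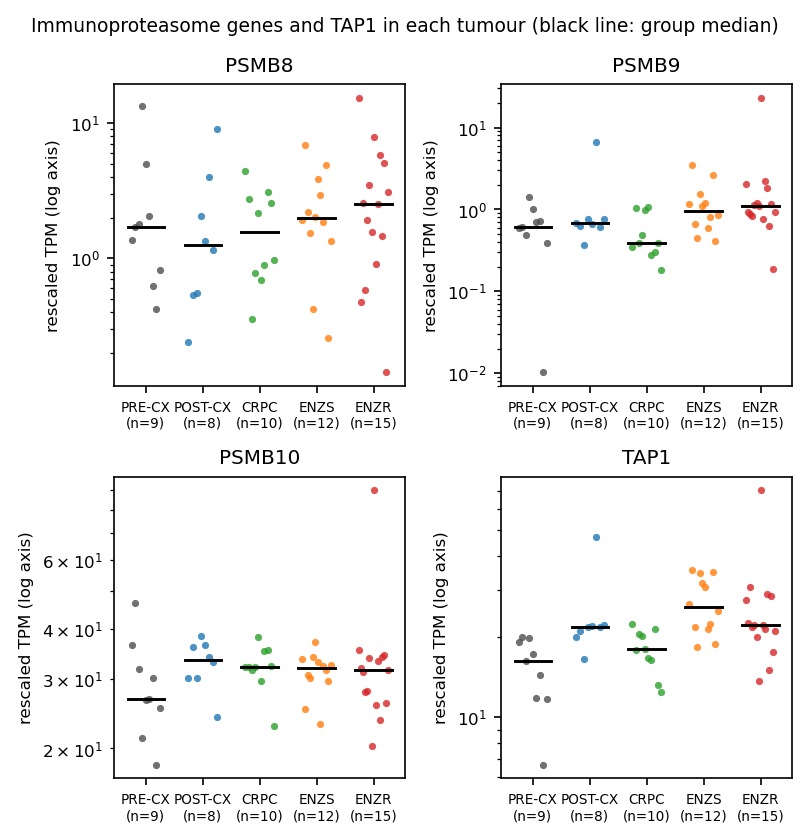
Rescaled TPM on log axes of PSMB8, PSMB9, PSMB10 and TAP1 in each tumour (points) of the 5 groups (x axis), with a black line at the group median. The isolated high points of PSMB9 and TAP1 are ENZR mouse 87 (22.8 and 70.5 TPM) and POST-CX mouse 91 (6.74 and 47.4 TPM).

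PSMB9 and TAP1, the head-to-head genes printed above, were compared within each group over log2 values, as 5 of 15 relations tested. In the 12 ENZS tumours Pearson's r was 0.89 (permutation p = 3e-05, adjusted 0.00045) and Spearman's rho 0.97 (permutation p = 2e-05, adjusted 0.00030), and r was 0.97 without the 2 tumours farthest from the PSMB9 median. In PRE-CX (r = 0.77), POST-CX (0.98) and ENZR (0.84) r passed the adjusted threshold with permutation p of 0.018, 0.0066 and 0.0043. Spearman's rho did not pass there (0.57, 0.69 and 0.45, with permutation p of 0.12, 0.070 and 0.097). In those groups r fell to 0.26, 0.22 and 0.35 without the 2 farthest tumours, so the relation rested on them. In CRPC r was 0.11 (permutation p = 0.76) and rho 0.067 (0.87).

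PSME1 and PSME2 passed on r in POST-CX (0.82, permutation p = 0.018) and ENZR (0.79, 0.0027), with rho of 0.74 (permutation p = 0.046) and 0.50 (0.060) that did not pass when adjusted. Without the 2 farthest tumours r was 0.079 and 0.58. In PRE-CX rho passed (0.85, permutation p = 0.0064, adjusted 0.048) and r did not (0.67, 0.049, adjusted 0.092), and r was 0.86 without those tumours. PSMB8 and PSMB10 showed no relation that passed.

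Between the later states few members differed. From POST-CX to CRPC none of the 46 was called in either direction (all genes, 0.00568% higher and 0.0568% lower). At an unadjusted limma p under 0.05, 534 of all 17593 genes were higher, and so were 3 of the 46. These, named after their values were seen, were PSMA3 (0.23 ± 0.10, limma adjusted p = 0.32), PSMD14 (0.18 ± 0.09, 0.38) and PSMA2 (0.18 ± 0.08, 0.38). From CRPC to ENZS, 2 were higher (31.4% of all genes) and 3 lower (6.41%). PSMB5 fell by 0.23 ± 0.08 (limma adjusted p = 0.022), PSMA2 by 0.21 ± 0.08 (0.028) and PSMA7 by 0.17 ± 0.07 (0.049). PSMC1 rose by 0.23 ± 0.09 (limma adjusted p = 0.029) and PSMD10 by 0.22 ± 0.08 (0.019), with centred differences of 0.03 and 0.02 that were not called. Centring gave 0 higher and 16 lower (all genes, 11.2% and 13.9%).

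ENZR and ENZS could not be told apart in these genes or in any gene by limma (0% of all genes called in either direction). At an unadjusted p under 0.05, 1343 of all 17593 genes were lower, and so was 1 member, PSMC6 (named after its value was seen). Over all genes, limma called 1 higher with a pseudocount of 0.1, 1 higher and 1 lower without mice 87 and 91, and 1 lower with array weights, none of them a member. For PSMD8 the ENZR minus ENZS difference was -0.07 (95% interval -0.23 to 0.08), for PSMB5 0.02 (-0.13 to 0.16) and for PSME1 0.00 (-0.20 to 0.21). The difference between the relapse steps, ENZR minus ENZS set against CRPC minus POST-CX, called none of the 46 (all genes, 0.0966% higher and 0.102% lower). At an unadjusted p under 0.05, 1031 of all 17593 genes were lower for this difference, and so were 5 of the 46. These were PSMA3, PSMB4, PSMC6, PSMD8 and PSMD14, named after their values were seen.

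Among other genes of the pathway, 4 lists are given by their counts. Of 12 proteasome-associated and assembly factors, 0 were higher and 3 lower in POST-CX, 0 and 2 in CRPC, 3 and 3 in ENZS, and 1 and 3 in ENZR. Of all genes, 20.6% and 5.62%, 14.2% and 5.87%, 47.5% and 13.6%, and 44.6% and 13.8% were called. UCHL5, a deubiquitinase that docks on the regulatory particle, had a median of 64.4 TPM in PRE-CX (53.0 to 101), 37.2 in POST-CX (25.8 to 42.9), 46.1 in CRPC (33.9 to 79.6), 46.3 in ENZS (32.3 to 53.0) and 38.5 in ENZR (19.5 to 48.3). No POST-CX or ENZR tumour reached the PRE-CX range. UCHL5 fell by 0.87 ± 0.15 (limma adjusted p = 2.0e-05), 0.52 ± 0.14 (0.0057), 0.63 ± 0.13 (7.3e-05) and 0.89 ± 0.13 (1.0e-07) in that order. SEM1, a small lid subunit without a PSM symbol, fell in POST-CX by 0.33 ± 0.08 (0.0027) and PITHD1 fell in all 4 groups, by 0.56 ± 0.10 (5.8e-05) in POST-CX, 0.42 ± 0.10 (0.0013) in CRPC, 0.21 ± 0.09 (0.049) in ENZS and 0.38 ± 0.09 (0.00034) in ENZR. POMP, the core assembly factor, and ADRM1, a ubiquitin receptor, were not called against PRE-CX without centring. Centring called ADRM1 lower in all 4 groups, and POMP lower in POST-CX and ENZS.

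A list of 4 genes held the transcription factors NFE2L1 and NFE2L2, and NGLY1 and DDI2, which process the NFE2L1 protein. Of these 4, 2 were higher in ENZS and in ENZR (all genes, 47.5% and 44.6%) and none in POST-CX or CRPC (20.6% and 14.2%). NFE2L1, the factor that raises proteasome gene expression when the protease is inhibited, had a median of 89.9 TPM in PRE-CX (43.8 to 120), 95.2 in POST-CX, 92.2 in CRPC, 139 in ENZS (108 to 225) and 147 in ENZR (68.6 to 187). Above the PRE-CX range were 10 of 12 ENZS and 9 of 15 ENZR tumours. NFE2L1 rose by 0.84 ± 0.18 (limma adjusted p = 5.0e-05) in ENZS and 0.70 ± 0.17 (0.00042) in ENZR, and NFE2L2, its relative, by 0.68 ± 0.12 (3.9e-06) and 0.51 ± 0.11 (0.00019). NFE2L1 was also higher in ENZS than in CRPC, by 0.64 ± 0.17 (limma adjusted p = 0.0029).

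Of 14 ubiquitin genes and shuttle factors, 1 was higher and 1 lower in POST-CX, 1 and 0 in CRPC, and 3 and 2 in both ENZS and ENZR. The shares of all genes were 20.6% and 5.62%, 14.2% and 5.87%, 47.5% and 13.6% in ENZS, and 44.6% and 13.8% in ENZR. UBQLN2, a shuttle that carries ubiquitinated proteins to the proteasome, rose in POST-CX by 0.59 ± 0.10 (limma adjusted p = 3.8e-05), in CRPC by 0.39 ± 0.10 (0.0029), in ENZS by 0.66 ± 0.09 (5.9e-08) and in ENZR by 0.50 ± 0.09 (6.3e-06).

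Of 11 genes of class I antigen presentation, 4 were higher and 1 lower in POST-CX, 2 and 0 in CRPC, and 8 and 0 in both ENZS and ENZR. Of all genes, 20.6% were higher and 5.62% lower in POST-CX, and 14.2% and 5.87% in CRPC. The shares were 47.5% and 13.6% in ENZS, and 44.6% and 13.8% in ENZR. In ENZS and in ENZR, 5 of the 7 stroma and blood markers that could be tested were higher too and 1 was lower, and the part of these markers in the counts was not tested. TAP1, which carries peptides into the endoplasmic reticulum, had a median of 16.3 TPM in PRE-CX (6.66 to 20), 21.8 in POST-CX (16.5 to 47.4), 17.9 in CRPC (12.5 to 22.3), 25.8 in ENZS (18.3 to 35.6) and 22.2 in ENZR (13.7 to 70.5). It rose by 0.62 ± 0.20 in POST-CX (limma adjusted p = 0.018), 0.80 ± 0.18 in ENZS (0.00019) and 0.66 ± 0.18 in ENZR (0.0012), and was still called in these 3 groups without mice 87 and 91. The POST-CX call was lost with centring (0.43, adjusted p = 0.094) and on the values as deposited (0.36, 0.31). ERAP1, which trims peptides for class I, rose by 1.49 ± 0.19 in ENZS (limma adjusted p = 6.9e-09) and 1.25 ± 0.19 in ENZR (1.9e-07).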

How the data were processed

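RNA-seq was measured in 54 tumours, which the labels put into 5 groups. According to the study's methods the authors aligned reads to a combined human GRCh38 and mouse GRCm38 reference, and the deposited values are TPM per human gene symbol. The submitters' processing notes name FastQC 0.11.9, Trim Galore 0.6.5, STAR 2.7.2b and RSEM 1.3.3. Mouse genes were not among the deposited values, so each tumour was rescaled to a human total of 1000000, which makes relative levels depend on the other genes of that tumour.

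The 17593 genes with at least 1 rescaled TPM in at least 8 tumours entered 1 limma fit (3.58.1, R 4.3.3, trend option) of the 5 group means on log2(rescaled TPM + 1), tested on simulated data, with Benjamini-Hochberg adjustment within each comparison. The 46 proteasome genes, the other lists and the tests were chosen with earlier results of these data known. Values were named for a panel of 17 members (PSMB5 to PSMB10, PSMA1, PSMC2, PSMD4, PSMD11, PSMD14, PSME1 to PSME4, PSMF1 and PSMG1), for the 3 largest called rises and falls of members in each comparison, for POMP, ADRM1, SEM1, NFE2L1 and TAP1, and in each other list for the gene with the lowest adjusted p in each comparison against PRE-CX, some of which are not reported here. Permutation tests used SciPy 1.17.1 and were exact where a group had under 10 tumours, and otherwise drew 100000 resamples. No 2 tumours held the same values, with at most 2.31% identical between any 2. Nothing beyond the mouse number says that tumours were separate cultures of cells, so p-values measure the spread between these tumours. Promoter windows came from RefSeq (GRCh38.p14), the files' human build. Alternatives were the values as deposited, centring, a pseudocount of 0.1, no filter, array weights, and leaving out the tumours with a human total under 50%.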

Additional observations from a re-analysis of the deposited data

Results flagged for a closer look

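Tumours that stood apart within their group were sought in 78 groups of 10 or fewer tumours, over 26 genes, by the gap to the nearest other tumour as a share of the range. Such a gap appeared 5 times, and chance gives about 1 in 20 groups, or 3.9. In POST-CX, mouse 91 was high for PSMB9, at 6.74 TPM against 0.368 to 0.765 in the other 7, and low for the lid deubiquitinase PSMD14, at 51.6 TPM against 64.5 to 75.8. In CRPC, mouse 81 was high for PSMB7 (193 TPM, others 123 to 155), mouse 47 was high for PSMA1 (374 TPM, others 271 to 316), and mouse 107 was low for PSMB10 (22.8 TPM, others 29.6 to 38.2). POST-CX mouse 91 also had a human total of 27.9%, and the part of that total in its values was not tested.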

How the results depend on the processing

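Of 342 repeats of the named log2 differences, 286 kept direction and side of the threshold, 54 kept direction only and 2 reversed, and of 57 named differences 21 kept their call in all 6 settings. Both reversals came with centring, PSMC2 (-0.10) and PSMD1 (-0.05) in ENZS minus PRE-CX. No paired analysis was possible because no mouse number is shared between groups. Group sizes of 8 to 15 limit the precision, and TPM hold no depth.

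Counts of called members moved by over 1.5 times as follows, higher and then lower. On the values as deposited there were 0 and 2 in POST-CX, 0 and 0 in CRPC, 1 and 3 in ENZS and 0 and 7 in ENZR against PRE-CX. In ENZS minus CRPC there were 0 and 0 (1121 and 473 of all 17593 genes). With centring there were 0 and 27, 0 and 8, 1 and 32, 1 and 33, and 0 and 16. POST-CX had 2 higher with a pseudocount of 0.1 (4045 of all 17593 genes), 2 without the low-total tumours (3304) and 3 with array weights (6207). Array weights gave 10 lower in CRPC (all genes, 1812) and 1 lower in CRPC minus POST-CX (1590). They gave 5 higher and 1 lower in ENZS minus CRPC (5850 and 1335) and 1 higher for the difference between relapse steps (1204). Without a filter there was 1 higher in CRPC and 2 in ENZS (1973 and 10091 of the 39909 genes then tested). Deposited values scale with the human total of each tumour, and centring removes the shift in the median of all genes. The cause of the other moves was not tested.

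PSMB8 relative to PSMB5 reversed with a pseudocount of 0.1 in POST-CX (-0.11) and CRPC (-0.021) minus PRE-CX and in CRPC minus POST-CX (0.093), and without low-total tumours in POST-CX (-0.15) and CRPC minus POST-CX (0.18), as did PSMB9 relative to PSMB6 in ENZR minus ENZS (-0.055). None of these passed the threshold in any setting. PSMB10 relative to PSMB7 in ENZS (0.38) had an adjusted p of 0.087 by permutation of mean ranks. For PSMB9 and TAP1, r no longer passed in PRE-CX with centring (0.65) or without low-total tumours (0.77, its adjusted p moving with the others), nor without them in POST-CX (0.89) and ENZR (0.43). For PSME1 and PSME2 it no longer passed in POST-CX with centring (0.78) or without those tumours (0.60), or in ENZR without them (0.48). PSMB8 and PSMB10 in ENZS passed with centring only (-0.81, permutation adjusted p = 0.0068).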
